A study of Homo sapiens with 12 samples.

Results

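The genes described here make cholesterol and fatty acids or regulate their synthesis. They were chosen by name from the gene symbols of the deposited tables, and all 37 were found, out of 19038 transcripts in the RNA table and 19037 in the footprint table. They fall into 3 classes: 19 sterol enzymes (with ACAT2, which feeds the pathway, and STARD4, which moves sterols), 5 SREBP regulators and 13 fatty acid enzymes.

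Sterol regulatory element-binding proteins (SREBPs) are transcription factors that are made as precursors in the membrane of the endoplasmic reticulum (ER). When sterols run low, the escort protein SCAP carries them to the Golgi, where they are cut, and the released part enters the nucleus and switches on genes of sterol and fatty acid synthesis; INSIG proteins hold SCAP in the ER when sterols are plentiful. Prostate cancer cells are known for making much of their own fatty acid and cholesterol, a programme that androgen receptor signalling also raises.

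Both arms of the study used 22Rv1, an established human prostate cancer cell line, grown under the skin of male NSG mice. NSG mice lack functional lymphocytes but keep their own fibroblasts, vessels and myeloid cells, so a xenograft can hold mouse stroma. Tumours of the treated group came from mice given zotatifin, an inhibitor of the RNA helicase eIF4A, at 0.3 mg/kg in 5% dextrose by intraperitoneal injection, and those of the control group from mice given 5% dextrose alone. The mice were 6 to 8 weeks old when the cells were injected, and were assigned to a treatment when tumours measured 70 to 100 mm3. Tumours were taken 6 h after treatment, 3 per treatment, and each lysate gave a library of ribosome footprints (fragments of 24 to 34 nt from monosome fractions) and a library of total RNA, 12 libraries in all.

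The promoters of these genes are shown first, because SREBPs act through them. RefSeq entries (GRCh38.p14) were found for 33 of the 37 genes, and no entry was used for FDFT1, SQLE, ACAT2 and FASN. In the 250 bases before the gene start, the letters CCAAT (the CCAAT box, bound by NF-Y, a factor that works together with SREBPs) were present on either strand in 13 of 16 sterol enzymes (81.2%), 2 of 5 regulators and 6 of 12 fatty acid enzymes. They were present in 35.2% of 10390 promoters of genes tested in RNA, and in 33.0% of all 27305 promoters. The GC box GGGCGG was present in 15 of 16 sterol enzymes (93.8%), 5 of 5 regulators and 9 of 12 fatty acid enzymes, against 66.8% of genes tested in RNA. The sterol regulatory element, searched as TCACNCCAC, was found in 1 of the 33 promoters, that of SREBF2, and in 0.885% of those of genes tested in RNA. The windows below are those of the 4 genes with an entry whose RNA or footprints fell, and of SREBF2. Capitals mark CCAAT or its reverse complement ATTGG and, in SREBF2, the sterol regulatory element. A match is a run of letters, an element with other letters or outside the 250 bases is missed, and no binding was measured here.
MSMO1 (chr4:165327419-165327668, plus strand): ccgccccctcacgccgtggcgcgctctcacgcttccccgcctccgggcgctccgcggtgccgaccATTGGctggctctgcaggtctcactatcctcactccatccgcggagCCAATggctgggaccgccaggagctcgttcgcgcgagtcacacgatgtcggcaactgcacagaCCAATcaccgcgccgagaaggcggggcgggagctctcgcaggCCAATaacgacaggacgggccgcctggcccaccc
INSIG1 (chr7:155297628-155297877, plus strand): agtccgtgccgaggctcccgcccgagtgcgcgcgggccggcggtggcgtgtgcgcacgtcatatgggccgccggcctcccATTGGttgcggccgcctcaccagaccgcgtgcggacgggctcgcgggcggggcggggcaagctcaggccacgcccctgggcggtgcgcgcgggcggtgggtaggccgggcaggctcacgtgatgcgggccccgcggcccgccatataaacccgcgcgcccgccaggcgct
SC5D (chr11:121292521-121292770, plus strand): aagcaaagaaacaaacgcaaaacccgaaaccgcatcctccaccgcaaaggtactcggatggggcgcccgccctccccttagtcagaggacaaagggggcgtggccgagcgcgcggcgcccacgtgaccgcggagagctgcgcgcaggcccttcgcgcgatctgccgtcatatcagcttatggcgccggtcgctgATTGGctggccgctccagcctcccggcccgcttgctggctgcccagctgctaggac
SREBF2 (chr22:41832855-41833104, plus strand): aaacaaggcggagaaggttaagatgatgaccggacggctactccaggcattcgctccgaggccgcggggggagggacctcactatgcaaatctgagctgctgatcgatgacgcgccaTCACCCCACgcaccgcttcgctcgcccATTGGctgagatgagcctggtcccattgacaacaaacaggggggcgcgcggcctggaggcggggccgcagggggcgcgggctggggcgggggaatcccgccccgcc
ACSL4 (chrX:109733258-109733507, minus strand): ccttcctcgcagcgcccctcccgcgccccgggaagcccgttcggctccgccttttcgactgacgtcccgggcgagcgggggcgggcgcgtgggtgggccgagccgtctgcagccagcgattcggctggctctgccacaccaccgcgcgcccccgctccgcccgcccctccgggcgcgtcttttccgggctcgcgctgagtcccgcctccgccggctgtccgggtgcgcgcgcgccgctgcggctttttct
The MSMO1 window held 4 CCAAT boxes, those of INSIG1, SC5D and SREBF2 held 1 each, and that of ACSL4 held 0.

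Footprint libraries held 838135 to 1540867 counts with zotatifin and 1592316 to 2013968 with vehicle, and RNA libraries 6594884 to 8153674 and 5761921 to 7121802 counts. Levels are given as CPM (counts divided by the TMM-scaled library size), in the order of tumours 1, 2 and 3, and are relative to the rest of the library, since no spike-in was used. Translational efficiency (TE) is the footprint level over the RNA level of the same tumour, on the log2 scale. Changes are log2, zotatifin over vehicle, with their standard error (SE). A gene was called where the adjusted p of edgeR's quasi-likelihood test, with Benjamini-Hochberg adjustment over all genes tested, was under 0.05. In bulk tumours, fewer cells of a type and less RNA per cell cannot be told apart. Markers of stroma differed between the arms in footprints. The summed footprints of 10 fibroblast markers were 143 to 267 CPM with zotatifin and 470 to 808 CPM with vehicle. Of 7 tested, 5 fell, where 3.92% of all genes did. Footprints of 8 myeloid markers summed to 36.2 to 65.0 and 76.0 to 349 CPM, and 2 of 4 tested fell. In RNA the fibroblast sums also lay apart, at 69.4 to 131 CPM with zotatifin and 216 to 362 CPM with vehicle. Myeloid RNA sums overlapped, at 10.8 to 20.6 and 16.2 to 54.8 CPM. All 8 prostate luminal markers were measured, and their footprints summed to 5226 to 6042 CPM with zotatifin and 3912 to 5198 CPM with vehicle. Of these 8, 3 rose in footprints (3.22% of all genes did) and 0 were called in RNA. Footprints of endothelial markers summed to at most 5.72 CPM in any library, and CD14 was at 0 in all footprint libraries. Endothelial RNA sums overlapped, at 3.97 to 6.39 CPM with zotatifin and 6.12 to 14.6 CPM with vehicle. The part of these cell types in the results was not tested.

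The first comparison asks which of these genes had fewer or more footprints after zotatifin, without taking their RNA level into account. Of the 35 genes that passed the filter on low counts in footprints, 3 fell and 0 rose: the sterol enzymes SQLE and MSMO1 and the fatty acid enzyme ACSL4. Among all 9544 genes tested, 7.14% were called, 3.22% rising and 3.92% falling, against 3 of 35 here. At an unadjusted p under 0.05, 3 genes lay above 0 and 8 below, a count not made over all genes. DESeq2 called 2 lower and 0 higher of the 30 it gave an adjusted p, and 421 of 4972 over all genes. INSIG2 and ACACB were not tested, with 3 to 15 and 3 to 10 counts per library. The sterol enzymes were mostly lower in small steps: 16 of 19 had a change below 0 (49.7% of all genes did), the median was −0.21 (0.0030 over all genes), and in 9 all 3 zotatifin libraries lay below all 3 vehicle libraries, where 13.5% of all genes did. LSS and PMVK lay the other way without overlap, as 12.9% of all genes did (26.4% in either direction). Of 4 regulators tested, 3 had a change above 0 and the median was 0.16. Without zotatifin tumour 1 that median was −0.0025, but INSIG2 also passed the filter there. Over the same 4 genes, the median leaving out 1 tumour was 0.098 to 0.24. The 12 fatty acid enzymes split evenly around 0, with a median of 0.0023, and its sign turned without zotatifin tumour 1 or 2 or vehicle tumour 1 or 2 (−0.041 to −0.013), and with no low-count filter, the replicate block or DESeq2 (−0.016 to −0.0011).

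RNA moved in another pattern. Of 37 genes tested, 2 fell and 0 rose: INSIG1 among the regulators and SC5D among the sterol enzymes. Among all 13118 genes tested in RNA, 1.72% were called, 0.808% rising and 0.907% falling. At an unadjusted p under 0.05, 2 genes lay above 0 and 8 below, a count not made over all genes. DESeq2 called 1 higher and 4 lower of 37, and 328 of 12306 over all genes. All 5 regulators had an RNA change below 0 (median −0.23), as did 11 of 13 fatty acid enzymes (median −0.21) and 11 of 19 sterol enzymes (median −0.14), against 50.3% of all genes and a median of −0.0023. The median of the sterol enzymes was −0.043 without vehicle tumour 2 and −0.046 without zotatifin tumour 3. RNA of 3 regulators and of 4 fatty acid enzymes was lower in every zotatifin library than in every vehicle library, where 10.9% of all genes were. Of the sterol enzymes, CYP51A1 and SC5D were lower in that way and MVK and FDFT1 were higher, as 12.3% of all genes were (23.1% in either direction).

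Footprints relative to RNA were compared in 1 model over the 12 libraries. Of 35 genes tested, TE fell for SQLE and rose for the regulator SREBF1. Among all 9454 genes tested for TE, 1.69% were called, 0.476% rising and 1.22% falling. All 4 regulators tested had a TE change above 0 (median 0.36), as did 10 of 12 fatty acid enzymes (median 0.13), while 12 of 19 sterol enzymes were below 0 (median −0.045). Over all genes, 51.9% were above 0 and the median was 0.016. TE was lower in every zotatifin tumour than in every vehicle tumour for the 5 sterol enzymes MVK, FDPS, FDFT1, SQLE and EBP and for ELOVL6, where 15.6% of all genes were. It was higher in that way for SREBF1, SREBF2, FASN and ACACA, where 10.7% of all genes were (26.3% in either direction). Without vehicle tumour 3 the median of the sterol enzymes was 0.059. The regulators' median of 0.36 rests on 4 genes. It was 0.10 with no low-count filter, 0.090 without zotatifin tumour 1, 0.13 without zotatifin tumour 2 and 0.18 without vehicle tumour 3, in each case with INSIG2 also included. Over the same 4 genes it was 0.33 with no low-count filter and 0.25 to 0.49 leaving out 1 tumour. The footprint, RNA and TE comparisons share the same tumours, and the differences between classes were not tested.

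**Figure D1:**
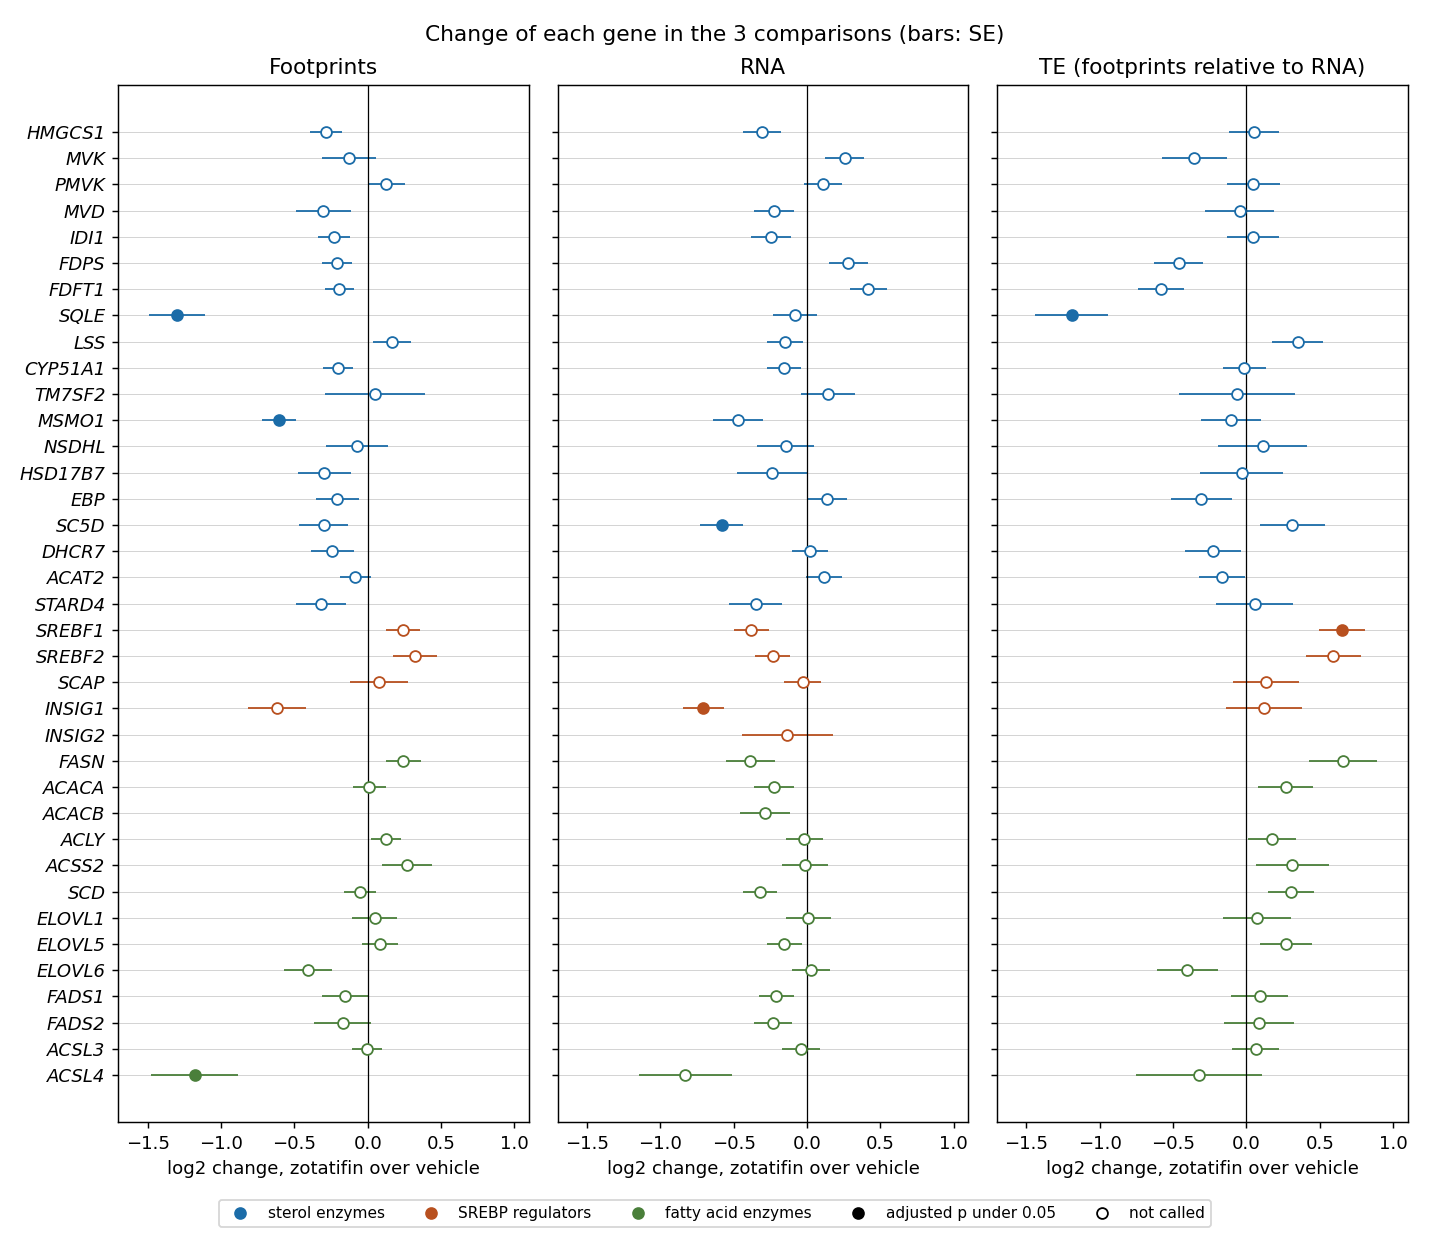
Log2 change of each gene, zotatifin over vehicle, in footprints, RNA and TE (x axes), with the genes down the page by class and bars for the SE; filled points had an adjusted p under 0.05. Most sterol enzymes sit left of 0 in footprints, all 5 SREBP regulators sit left of 0 in RNA, and the 4 regulators tested sit right of 0 in TE.

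Summed over a class, the same levels differed by assay. The 19 sterol enzymes summed to 3327, 3288 and 3079 CPM of footprints with zotatifin, against 3590, 3879 and 3766 CPM with vehicle, a ratio of means of 0.863, and the groups did not overlap. Their RNA summed to 2277, 2490 and 2251 CPM with zotatifin and to 1984, 2428 and 2198 CPM with vehicle, with overlap. FDFT1 and FDPS weighed most in the RNA sum, with means of 612 and 426 CPM with zotatifin and 458 and 350 CPM with vehicle. Regulator RNA summed to 873, 837 and 822 CPM with zotatifin, below each of 1023, 1127 and 940 CPM with vehicle. Regulator footprints summed to 351, 437 and 343 CPM with zotatifin and to 347, 356 and 301 CPM with vehicle, with overlap. The sums of the fatty acid enzymes consist largely of FASN reads. They overlapped in both assays, at 6500 ± 685 and 5825 ± 651 CPM of footprints and at 5189 ± 812 and 6300 ± 468 CPM of RNA, in each case zotatifin and vehicle (SD, n = 3 each).

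**Figure D2:**
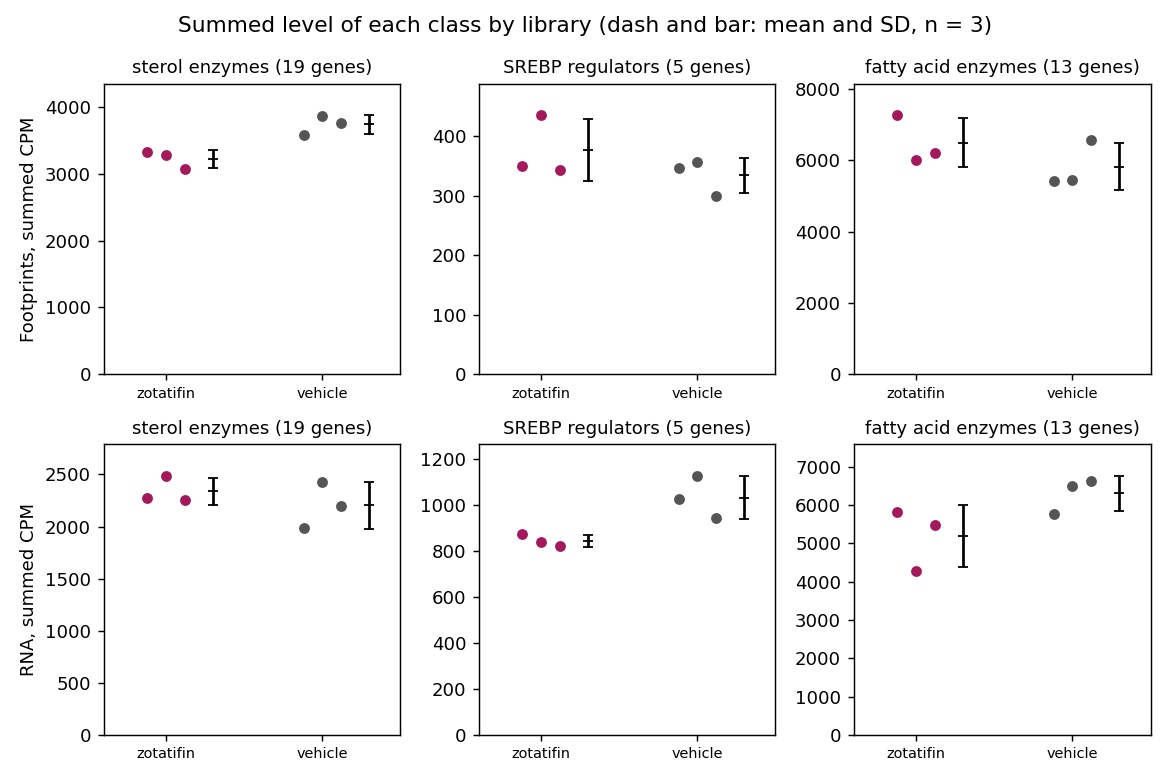
Summed TMM-scaled CPM of each class (y axes) in every library, zotatifin left and vehicle right, with footprints above and RNA below; the dash and bar give the mean and SD of 3 libraries. The groups lie apart for sterol enzymes in footprints and for SREBP regulators in RNA, and overlap in the other 4 panels.

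Among the sterol enzymes, SQLE had the largest change. It encodes squalene epoxidase, which adds oxygen to squalene in a rate-limiting step of the sterol branch (ENST00000265896, chr8:124998505-125022283, GRCh38.p14). SQLE footprints were 24.3, 24.5 and 18.1 CPM with zotatifin and 50.6, 51.6 and 59.7 CPM with vehicle. The groups were far apart, and footprints fell to 0.405 of the vehicle level (−1.30 ± 0.19, adjusted p = 9.4e-05). SQLE RNA was 40.1, 45.2 and 35.6 CPM with zotatifin and 48.1, 42.9 and 37.1 CPM with vehicle. These ranges overlapped, and RNA was not called (−0.08 ± 0.15, adjusted p = 0.818). TE of SQLE was −0.72, −0.88 and −0.97 with zotatifin and 0.07, 0.27 and 0.69 with vehicle, and it fell (−1.19 ± 0.25, adjusted p = 0.0091). The footprint call held in all 11 alternatives, and the TE call was lost without vehicle tumour 3 (adjusted p = 0.0775), the tumour with the highest TE.

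MSMO1, a methylsterol monooxygenase that takes part in removing methyl groups from the sterol ring, was lower in both assays (ENST00000261507, chr4:165327669-165343164). Its footprints were 132, 131 and 121 CPM with zotatifin and 180, 203 and 199 CPM with vehicle. The groups lay apart and footprints fell (−0.60 ± 0.12, adjusted p = 0.0015), a call that held in all 11 alternatives. MSMO1 RNA was 31.9, 35.5 and 27.9 CPM with zotatifin and 44.8, 54.5 and 33.0 CPM with vehicle. Vehicle tumour 3 lay among the zotatifin tumours, and RNA was not called (−0.47 ± 0.17, adjusted p = 0.151). The change of TE was −0.11 ± 0.21 (adjusted p = 0.855).

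SC5D, the desaturase that introduces a double bond late in sterol synthesis, was the only sterol enzyme called in RNA (ENST00000264027, chr11:121292771-121313410). Its RNA was 27.6, 30.8 and 25.8 CPM with zotatifin and 42.3, 40.1 and 43.4 CPM with vehicle. The groups lay well apart and RNA fell (−0.58 ± 0.15, adjusted p = 0.0475). That call was lost without zotatifin tumour 1 or 3 or vehicle tumour 1 or 3 (adjusted p up to 0.165). SC5D footprints were 42.5, 38.0 and 38.8 CPM with zotatifin and 54.5, 43.3 and 48.9 CPM with vehicle. The groups did not overlap, by a small margin, and footprints were not called (−0.30 ± 0.17, adjusted p = 0.305).

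**Figure D3:**
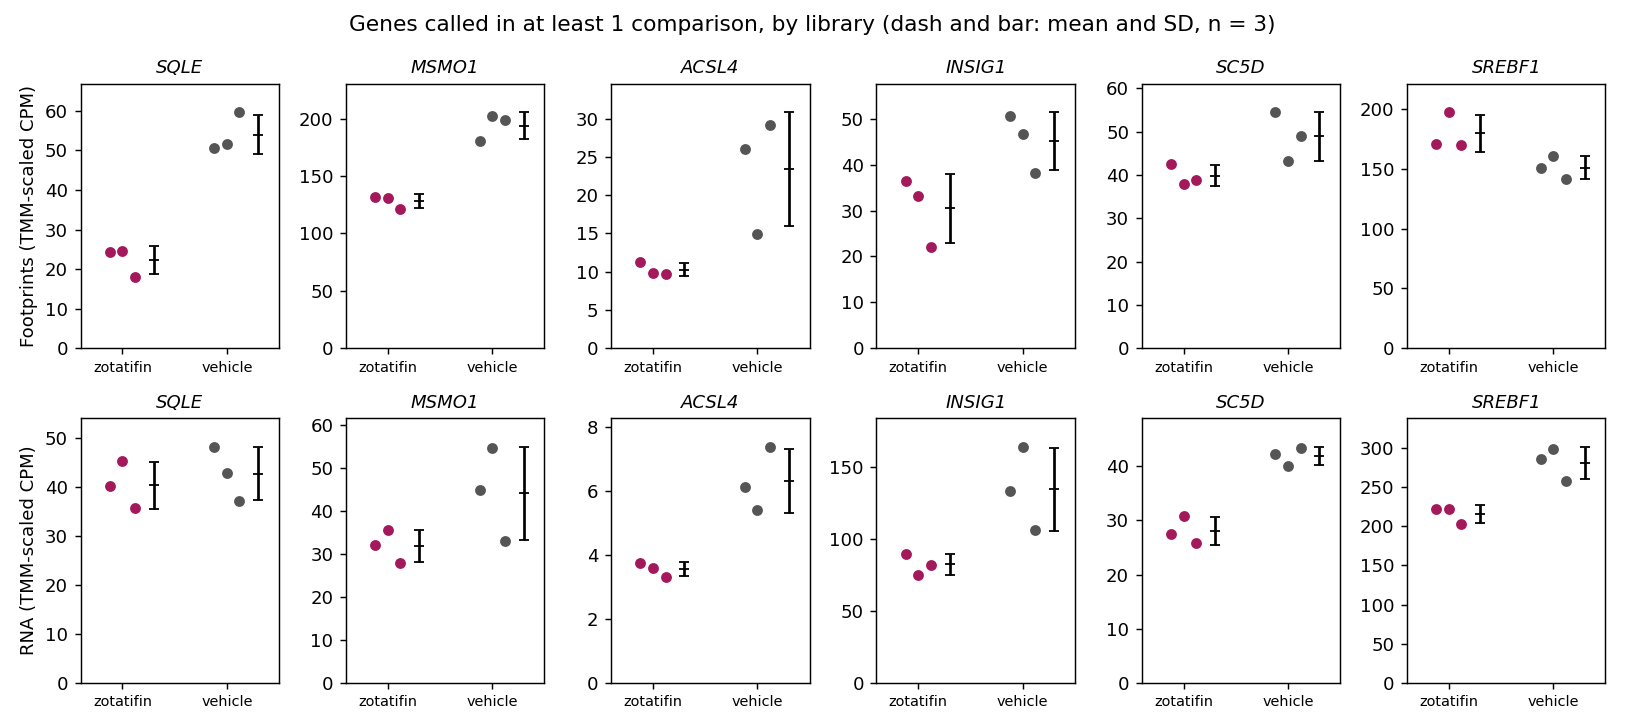
TMM-scaled CPM (y axes, from 0) of the 6 genes called in at least 1 comparison, in every library, zotatifin left and vehicle right, with footprints above and RNA below; the dash and bar give the mean and SD of 3 libraries. SQLE separates in footprints (18.1 to 24.5 against 50.6 to 59.7 CPM) and overlaps in RNA, whereas SREBF1 is higher in footprints and lower in RNA with zotatifin.

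The mevalonate steps that precede squalene differed little in footprints and not always alike in RNA. HMGCS1, the cytosolic synthase that commits acetyl units to the pathway, had 430, 354 and 384 CPM of footprints with zotatifin and 425, 486 and 517 CPM with vehicle. Zotatifin tumour 1 lay among the vehicle tumours (−0.29 ± 0.11, adjusted p = 0.103), and its RNA change was −0.31 ± 0.13. ACAT2, the thiolase that joins acetyl-CoA units, changed by −0.08 in footprints and 0.12 in RNA. The kinases MVK and PMVK changed by −0.13 and 0.13 in footprints and by 0.26 and 0.11 in RNA. The decarboxylase MVD (−0.30 in footprints, −0.22 in RNA) and the isomerase IDI1 (−0.23 and −0.25) were lower by like amounts in both assays. None of these was called in any comparison.

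FDPS and FDFT1, the enzymes that build farnesyl diphosphate and then squalene, had opposite signs in the 2 assays. FDFT1 RNA was 588, 646 and 602 CPM with zotatifin and 385, 511 and 477 CPM with vehicle, without overlap, with a change of 0.42 ± 0.13 (adjusted p = 0.0927). Its footprints were 636, 617 and 607 CPM with zotatifin and 667, 749 and 709 CPM with vehicle, again without overlap (−0.19 ± 0.10, adjusted p = 0.253). TE of FDFT1 was therefore lower in all 3 zotatifin tumours (0.11, −0.07 and 0.01) than in vehicle tumours (0.79, 0.55 and 0.57), with a change of −0.58 ± 0.16 that was just over the threshold (adjusted p = 0.0520). It was called with no low-count filter, at a mean of at least 50 counts, with DESeq2 and with the tumour as a block (adjusted p = 3.4e-04 in the last). Its RNA was called with no low-count filter, the replicate block or DESeq2 (lowest adjusted p = 0.0257). FDPS RNA was 408, 481 and 388 CPM with zotatifin and 295, 392 and 365 CPM with vehicle, with overlap (0.28 ± 0.13, adjusted p = 0.262). FDPS footprints were 452, 460 and 453 CPM with zotatifin, below each of 479, 564 and 536 CPM with vehicle (−0.21 ± 0.10, adjusted p = 0.220). Its TE change was −0.46 ± 0.17 (adjusted p = 0.157), with no overlap between the groups, and it was called with the tumour as a block (adjusted p = 0.0063). MVK had the next largest negative TE change of the class, −0.36 ± 0.22 (adjusted p = 0.466).

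Past squalene, LSS, which closes the sterol rings, was 1 of 3 sterol enzymes with more footprints after zotatifin, at 108, 105 and 99.6 CPM against 97.8, 90.5 and 89.0 CPM with vehicle. The groups lay apart by a small margin (0.17 ± 0.13, adjusted p = 0.481), and its RNA change was −0.15. CYP51A1, the lanosterol demethylase, had lower footprints (−0.20 ± 0.10) and lower RNA (−0.16 ± 0.12) in every zotatifin library than in every vehicle library, and was called in neither. The reductases TM7SF2 (0.05) and DHCR7 (−0.24) and the isomerase EBP (−0.21) had footprint changes with an SE of 0.15 to 0.34. So did NSDHL (−0.07) and HSD17B7 (−0.30), which work with MSMO1 in removing methyl groups, and none of these genes was called. STARD4, a carrier of sterols between membranes, changed by −0.32 ± 0.17 in footprints and −0.35 ± 0.18 in RNA and was called in neither.

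The SREBP regulators split by role. SREBF1 and SREBF2, which encode the SREBP precursors, had lower mean RNA and higher mean footprints with zotatifin, while INSIG1 was lower in both assays. SREBF1 RNA was 222, 222 and 202 CPM with zotatifin and 286, 298 and 258 CPM with vehicle (ENST00000355815, chr17:17811334-17836986). All zotatifin tumours lay below all vehicle tumours, and the change was −0.38 ± 0.12 (adjusted p = 0.0973; 0.0281 with DESeq2). Its footprints were 171, 197 and 170 CPM with zotatifin, above each of 151, 160 and 141 CPM with vehicle, and were not called (0.24 ± 0.11, adjusted p = 0.214). TE of SREBF1 was −0.38, −0.17 and −0.25 with zotatifin and −0.92, −0.90 and −0.87 with vehicle. The vehicle tumours were tightly grouped, the gap between the groups was wide, and TE rose (0.65 ± 0.16, 1.57-fold, adjusted p = 0.0273). That call was lost without any 1 tumour other than zotatifin tumour 2 (adjusted p up to 0.123).

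SREBF2, whose product chiefly drives sterol genes, showed the same arrangement with more scatter. Its RNA was 375, 356 and 374 CPM with zotatifin, below each of 437, 454 and 410 CPM with vehicle (−0.23 ± 0.12, adjusted p = 0.293). Its footprints were 107, 172 and 122 CPM with zotatifin and 112, 113 and 88.3 CPM with vehicle. Zotatifin tumour 2 stood highest and tumour 1 lay among the vehicle tumours (0.32 ± 0.15, adjusted p = 0.189). TE was −1.81, −1.05 and −1.61 with zotatifin and −1.96, −2.01 and −2.21 with vehicle, without overlap, and it was not called (0.59 ± 0.19, adjusted p = 0.104) unless the tumour was taken as a block (0.58 ± 0.14, adjusted p = 0.0061).

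INSIG1, the ER protein that retains SCAP and is itself an SREBP target, had the lowest adjusted p among these genes in RNA (ENST00000340368, chr7:155297878-155310235). Its RNA was 89.6, 74.9 and 82.0 CPM with zotatifin and 133, 164 and 106 CPM with vehicle. The groups lay apart and RNA fell to 0.613 of the vehicle level (−0.71 ± 0.14, adjusted p = 0.0165). The call was lost without zotatifin tumour 3, vehicle tumour 1 or vehicle tumour 2 (adjusted p up to 0.119). INSIG1 footprints were 36.4, 33.1 and 22.0 CPM with zotatifin and 50.6, 46.6 and 38.1 CPM with vehicle. They did not overlap, and the change was just short of the threshold (−0.62 ± 0.20, adjusted p = 0.0530). It passed in 4 of 11 alternatives (no low-count filter, a mean of at least 50 counts, without zotatifin tumour 1 and without vehicle tumour 3), with a lowest adjusted p of 0.0264. Its TE change was 0.12 ± 0.26 (adjusted p = 0.871). The paralog INSIG2 had RNA of 3.99, 5.76 and 5.95 CPM with zotatifin and 6.29, 4.75 and 6.12 CPM with vehicle, with overlap (−0.13 ± 0.31). INSIG2 footprints were 4.34, 3.68 and 3.23 CPM with zotatifin, below each of 7.37, 7.77 and 5.72 CPM with vehicle. They rested on 3 to 15 counts per library, too few for a test. SCAP, the escort protein, changed by 0.08 ± 0.20 in footprints, −0.03 ± 0.13 in RNA and 0.14 ± 0.23 in TE, and its groups overlapped in each.

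**Figure D4:**
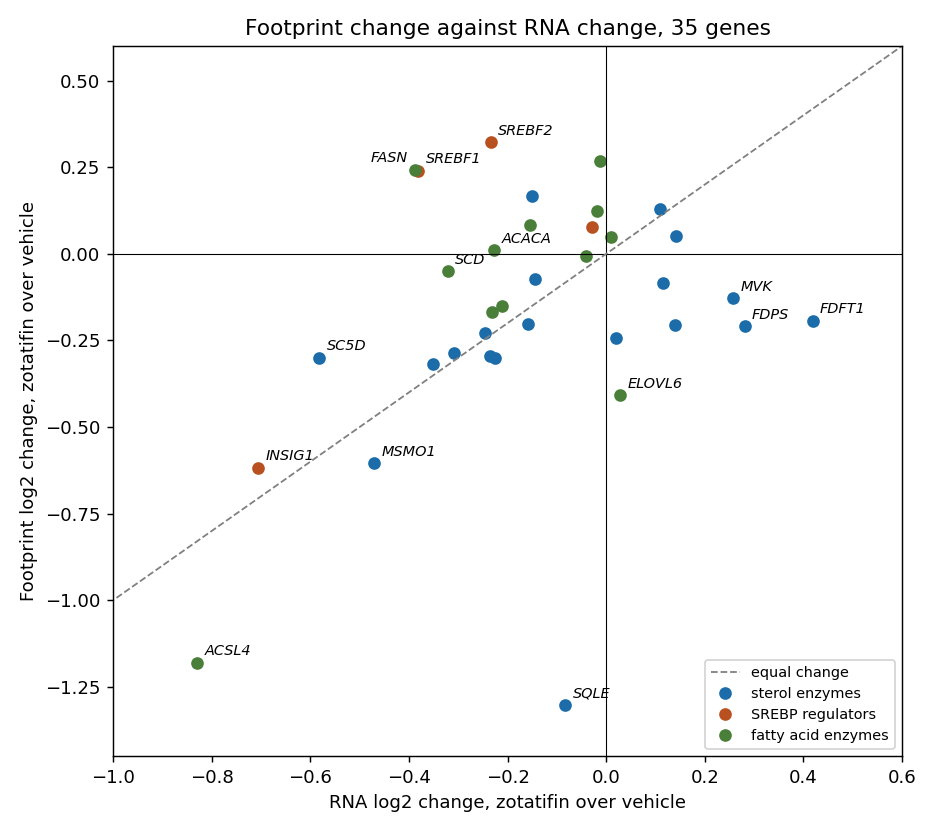
Footprint change (y axis) against RNA change (x axis), both log2, zotatifin over vehicle, for the 35 genes tested in both, coloured by class; on the dashed line both changed alike. SREBF1, SREBF2 and FASN lie above the line with RNA below 0 and footprints above 0, while SQLE, FDFT1 and FDPS lie below it; both axes come from the same tumours.

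No fatty acid enzyme was called by edgeR in RNA, although 11 of 13 had an RNA change below 0. At an unadjusted p under 0.05, 3 lay below 0 and 0 above, a count not made over all genes. DESeq2 called 1 of the 13 lower, where it called 328 of 12306 over all genes. FASN, the synthase that builds palmitate, had RNA of 3127, 1785 and 2926 CPM with zotatifin and 2962, 3514 and 3783 CPM with vehicle. Zotatifin tumour 2 was far below the rest and tumour 1 lay among the vehicle tumours (−0.39 ± 0.17, adjusted p = 0.220). FASN footprints were 4655, 3457 and 3889 CPM with zotatifin and 3072, 3124 and 3950 CPM with vehicle, with overlap (0.24 ± 0.12, adjusted p = 0.225). TE of FASN was 0.57, 0.95 and 0.41 with zotatifin and 0.05, −0.17 and 0.06 with vehicle. Zotatifin tumour 2 was highest, the groups did not overlap, and TE was not called (0.66 ± 0.23, adjusted p = 0.150) unless the tumour was taken as a block (0.69 ± 0.13, adjusted p = 2.6e-04).

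Upstream of FASN, ACACA makes malonyl-CoA in the cytosol and ACACB makes it at mitochondria. ACACA footprints were 357, 256 and 294 CPM with zotatifin and 295, 315 and 294 CPM with vehicle, and its RNA was 338, 225 and 309 CPM with zotatifin and 351, 334 and 337 CPM with vehicle. The groups overlapped in both assays (0.01 ± 0.11 and −0.23 ± 0.14), and zotatifin tumour 2 was lowest in both, as it was for FASN RNA. ACACB RNA was 26.4, 18.2 and 22.2 CPM with zotatifin and 29.4, 28.0 and 24.6 CPM with vehicle (−0.29 ± 0.17), again with tumour 2 lowest. ACLY and ACSS2, which supply acetyl-CoA from citrate and from acetate, changed by 0.12 ± 0.10 and 0.27 ± 0.17 in footprints and by −0.02 and −0.01 in RNA. None of these was called.

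SCD is the desaturase that makes oleate, and its RNA groups lay apart. Its RNA was 606, 627 and 595 CPM with zotatifin and 782, 776 and 724 CPM with vehicle, and the change was −0.32 ± 0.12 (adjusted p = 0.153; 0.0306 with DESeq2). SCD footprints were 312, 353 and 272 CPM with zotatifin and 331, 300 and 331 CPM with vehicle, with overlap (−0.05 ± 0.11). The 3 elongases differed from each other. ELOVL6, which extends palmitate to stearate, had 38.2, 47.8 and 43.3 CPM of footprints with zotatifin, below each of 60.0, 59.9 and 49.6 CPM with vehicle (−0.41 ± 0.16, adjusted p = 0.133). Its RNA was 61.2, 56.1 and 65.0 CPM with zotatifin and 63.6, 62.4 and 53.0 CPM with vehicle, with overlap (0.03 ± 0.13), and its TE change was −0.40 ± 0.21 (adjusted p = 0.358). ELOVL5, which extends polyunsaturated chains, had lower RNA in every zotatifin tumour (404, 413 and 382 CPM) than in vehicle tumours (460, 424 and 451 CPM), with a change of −0.15 ± 0.12. ELOVL5 footprints were 467, 468 and 338 CPM with zotatifin and 383, 352 and 459 CPM with vehicle. ELOVL1, which makes very long saturated chains, had 71.2, 85.8 and 57.6 CPM of footprints with zotatifin and 71.3, 61.1 and 69.9 CPM with vehicle. Footprints of both overlapped and had changes of 0.08 and 0.05.

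FADS1 and FADS2, the desaturases of polyunsaturated fatty acids, had RNA changes of −0.21 ± 0.12 and −0.23 ± 0.13. FADS1 RNA was 164, 151 and 147 CPM with zotatifin, just below 166, 195 and 173 CPM with vehicle. FADS2 RNA was 59.9, 59.0 and 61.5 CPM with zotatifin and 79.0, 73.7 and 59.5 CPM with vehicle, with overlap. Their footprints overlapped as well (−0.15 ± 0.16 and −0.17 ± 0.19), and neither gene was called.

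ACSL3 and ACSL4 attach coenzyme A to long-chain fatty acids, and ACSL4 prefers arachidonic acid. ACSL4 was the fatty acid enzyme called in footprints (ENST00000340800, chrX:109641335-109733257). Its footprints were 11.3, 9.81 and 9.70 CPM with zotatifin and 26.0, 15.0 and 29.2 CPM with vehicle, from 13, 8 and 15 counts with zotatifin and 53, 27 and 46 counts with vehicle. The groups lay apart, with vehicle tumour 2 nearest to the zotatifin tumours, and footprints fell (−1.18 ± 0.29, adjusted p = 0.0134). The call was lost without zotatifin tumour 3, vehicle tumour 1 or vehicle tumour 3 (adjusted p up to 0.0974), and DESeq2 gave no adjusted p. ACSL4 RNA was 3.75, 3.58 and 3.31 CPM with zotatifin, below each of 6.12, 5.40 and 7.37 CPM with vehicle (−0.83 ± 0.32, adjusted p = 0.167). Vehicle tumour 2 was also the vehicle tumour with the lowest summed footprints of fibroblast markers (470 CPM, against 704 and 808) and of myeloid markers (76.0 CPM, against 237 and 349), and their part in the ACSL4 result was not tested. ACSL3 footprints were 418, 452 and 395 CPM with zotatifin and 393, 434 and 442 CPM with vehicle, which overlapped (−0.01 ± 0.10), as did its RNA at 337, 328 and 326 CPM with zotatifin and 289, 396 and 334 CPM with vehicle (−0.04 ± 0.13).

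Because footprints and RNA of a tumour came from the same lysate, a second TE fit took each tumour as a block. In it 6 of the 35 genes were called, where 8.66% of all 9454 genes were (3.62% rising and 5.05% falling), against 2 without the block. TE of SQLE (−1.16 ± 0.23, adjusted p = 4.7e-04), FDFT1 (−0.59 ± 0.11, adjusted p = 3.4e-04) and FDPS (−0.45 ± 0.11, adjusted p = 0.0063) fell in this fit, and these 3 enzymes catalyse consecutive steps. TE of SREBF1 (0.66 ± 0.12, adjusted p = 2.1e-04), SREBF2 (0.58 ± 0.14, adjusted p = 0.0061) and FASN (0.69 ± 0.13, adjusted p = 2.6e-04) rose.

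**Figure D5:**
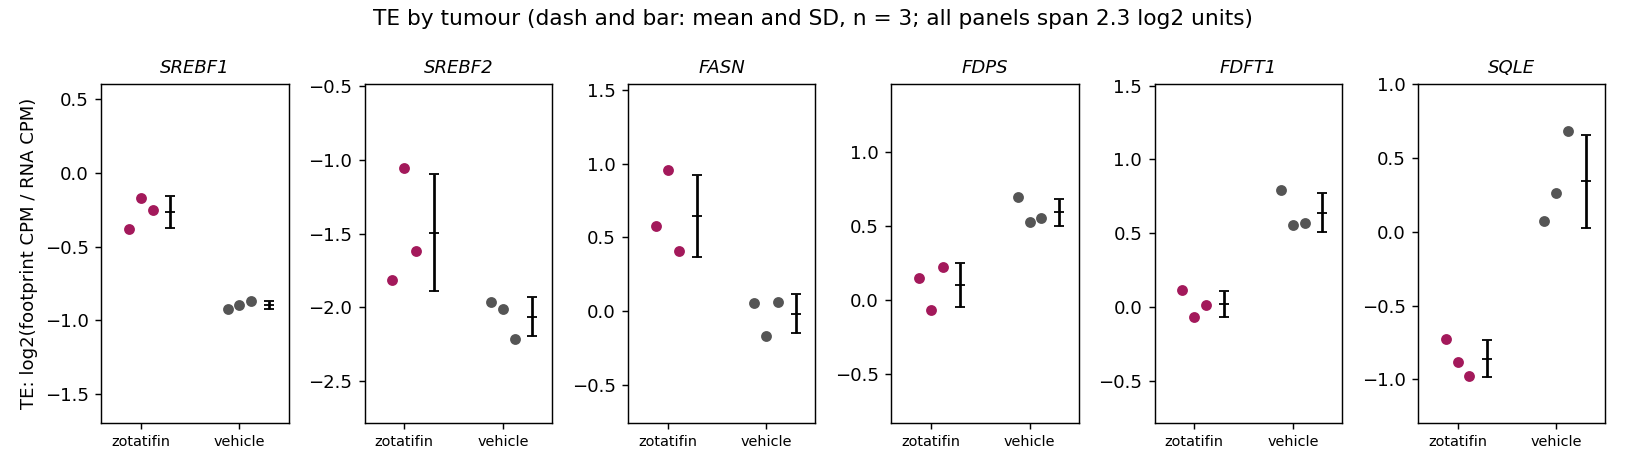
TE, log2 of footprint CPM over RNA CPM (y axes, each spanning 2.3 log2 units), of the 6 genes called with the tumour as a block, in every tumour, zotatifin left and vehicle right; the dash and bar give the mean and SD of 3 tumours. SREBF1, SREBF2 and FASN are higher and FDPS, FDFT1 and SQLE lower in each zotatifin tumour than in each vehicle tumour.

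The authors' deposited tables gave more calls from the same tumours. In the authors' deposited table for RNA, 4 of the 37 genes were lower and 1 was higher at an adjusted p under 0.05, where 2.47% of 12661 genes passed. The lower ones there were INSIG1 (−0.71, adjusted p = 0.0018), SREBF1 (−0.38, 0.0286), SCD (−0.32, 0.0312) and SC5D (−0.58, 0.0329), and the higher one was FDFT1 (0.42, 0.0262). The authors' deposited table for footprints relative to RNA listed 4 lower and 8 higher, where 18.3% of 11446 genes passed. FDPS, FDFT1, SQLE and ACAT2 were lower and LSS, SREBF1, SREBF2, FASN, ACACA, ACLY, SCD and ELOVL5 were higher in the authors' deposited table. Converted to log2, it gave −1.03 for SQLE and 0.70 for SREBF1. Its adjusted p for FASN was 1.5e-240, where edgeR's test of TE gave 0.150. Whether the authors' value takes in the spread between tumours was not tested.

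Other genes of lipid metabolism were counted from 6 lists with 65 genes: SREBP cleavage and ER turnover, side branches of the mevalonate pathway, sterol transport and esterification, glycerolipid synthesis and lipolysis, fatty acid oxidation, and the supply of acetyl-CoA and NADPH. In footprints 1 of 56 tested by edgeR fell and 0 rose, where 7.14% of all genes were called. At an unadjusted p under 0.05, 3 were above and 4 below 0, and DESeq2 called 1 lower of 31. In RNA 0 of 65 were called by edgeR, against 1.72% of all genes (3 above and 6 below at an unadjusted p under 0.05, 1 lower of 63 by DESeq2). For TE it was 0 of 56, against 1.69% (1 above, 4 below, 1 lower of 39 by DESeq2). Over all genes DESeq2 called 421 of 4972 in footprints, 328 of 12306 in RNA and 233 of 6651 in TE. Counts at an unadjusted p were not made over all genes. The gene that fell in footprints by edgeR was IDH1, a cytosolic source of NADPH for lipid synthesis. Its footprints were 1017, 835 and 1105 CPM with zotatifin and 1274, 1357 and 1391 CPM with vehicle. The groups lay apart (−0.44 ± 0.10, adjusted p = 0.0116), and the call was lost without vehicle tumour 1 (adjusted p = 0.0530).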

How the data were processed

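Sample titles gave the groups. The labels' treatment entry goes against the title in 6 of 12 samples, and the code in the column headers was taken to mean zotatifin. The genes, lists and tests were chosen with earlier results of these data known. The deposited tables hold raw counts per transcript, with 1 transcript a gene. The authors' RNA table gives a mean signal (normalised counts), a log2 change with its SE, a Wald score and a p-value, plain and adjusted. The authors' footprint table gives a treatment estimate, read as a natural log change of footprints relative to RNA, with an FDR as its p-value. Over 1566 genes it had a weight of 0.655 on footprint change and −0.653 on RNA change (both log2), where the natural log of 2 is 0.693. Per the submitters' processing notes, cutadapt 2.3, UMI-tools, Bowtie2 2.3.5, DESeq2 and hg38 were used. Their order, the strand setting and the handling of mouse reads or of reads shared with pseudogenes are not given in the sources.

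In R 4.3.3 with edgeR 4.0.16, genes passing filterByExpr (minimum count 10, minimum total 15) were scaled by TMM and tested with the quasi-likelihood F test. TE change was the interaction of assay and treatment, with TMM within each assay. Genes given by tumour were those with an adjusted p under 0.05, the 4 uncalled genes with the smallest footprint p, all paralogs, and FDPS, FDFT1, FASN, LSS and SCD, which were added after their values were seen. The edgeR fits of footprints, RNA and TE (with and without the tumour as a block) were tested on simulated counts, and the other steps were not. Alternatives were RLE scaling, no filter, a mean of at least 50 counts, DESeq2 1.42.0, the replicate number (for TE, the tumour) as a block, and leaving out each tumour. The numbers were checked on 4889 genes by the correlation of deviations from group means. Footprints and RNA of 1 lysate correlated at 0.217 to 0.440 (6 pairs) and other pairs of the same treatment at −0.381 to 0.119 (12 pairs). Equal numbers across treatments correlated at −0.0946 to 0.181 (6 pairs), so the numbers pair assays and not treatments. Symbols of 11 genes stand on more than 1 transcript in the tables. P-values of edgeR and DESeq2 for footprints and RNA measure the spread between 3 tumours per treatment. For TE without the block, they take the 12 libraries as independent and leave out that each tumour gave a library of both assays. The spread behind the p-values of the authors' footprint table was not tested.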

Additional observations from a re-analysis of the deposited data

How the results depend on the processing

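SQLE and MSMO1 kept their footprint calls in all 11 alternatives, and no called gene changed sign in any. Of the genes not called, 8 of 32 in footprints, 12 of 35 in RNA and 15 of 33 in TE had the other sign somewhere. Over all genes, footprint calls (681 of 9544 tested) were 421 of 4972 with DESeq2, and 185 to 726 of 9751 to 9839 leaving out 1 tumour. RNA calls (225 of 13118) were 624 of 18338 with no filter and 140 of 10562 at a mean of at least 50 counts. They were 527 of 13118 with the replicate block, and 11 to 396 of 13215 to 13427 leaving out 1 tumour. TE calls (160 of 9454) were 819 of 9454 with the tumour as the replicate block. Leaving out 1 tumour, they were 56 to 132 of 9649 to 9738. Footprint calls were 185 without vehicle tumour 1, and RNA calls 11, with 25 without vehicle tumour 3 and 396 without vehicle tumour 2. Of the 37 genes, DESeq2 called 5 in RNA (FDFT1, SREBF1 and SCD besides), and the tumour as a block 6 in TE. Leaving out 1 tumour gave 2 to 4 calls in footprints, 0 to 2 in RNA (0 without zotatifin tumour 3 or vehicle tumour 1) and 0 to 2 in TE (0 without vehicle tumour 3). The regulators' median was −0.33 in RNA at a mean of at least 50 counts, and in TE 0.10 with no filter, 0.62 at that mean and 0.11 with DESeq2, on 3 to 5 genes. INSIG2 passed the filter in footprints and TE without any 1 tumour other than vehicle tumour 1 or 2, so the regulators' medians there differ in genes as well as tumours. Medians leaving out 1 tumour were −0.20 to −0.066 (all genes described), −0.23 to −0.18 (sterol), −0.0025 to 0.20 (regulators) and −0.041 to 0.045 (fatty acid) in footprints, −0.20 to −0.11, −0.20 to −0.043, −0.27 to −0.21 and −0.23 to −0.15 in RNA, and −0.031 to 0.089, −0.11 to 0.059, 0.090 to 0.42 and 0.072 to 0.22 in TE. Equal replicate numbers do not pair treatments, so the block in footprints (796 calls, 3 of them here) and RNA (2 here and FDFT1) is given only as a value. The ACSL4 footprint call rested on 8 to 15 counts per zotatifin library; the cause of these shifts was not tested.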

Other observations

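Genes of fatty acid oxidation break down what the enzymes above make. Of 15 such genes, 0 were called by edgeR or DESeq2 in footprints, RNA or TE. Over all genes edgeR called 7.14%, 1.72% and 1.69%, and DESeq2 called 421 of 4972, 328 of 12306 and 233 of 6651. At an unadjusted p under 0.05 edgeR had 1 above and 2 below 0 in footprints and 3 above and 0 below in RNA. For TE it had 0 above and 2 below, and counts at that p were not made over all genes. In RNA 12 of 15 had a change above 0 (median 0.17), as did 49.7% of all genes, and their RNA summed to 1810, 1945 and 1883 CPM with zotatifin and to 1489, 1815 and 1740 CPM with vehicle, with overlap. Their footprints summed to 3037, 2956 and 3023 CPM with zotatifin and to 2807, 3029 and 3001 CPM with vehicle, again with overlap. The TE change was below 0 in 10 of 15 (median −0.11), as it was for 48.1% of all genes, and TE of 6 was lower in every zotatifin tumour than in every vehicle tumour, as it was for 15.6% of all genes tested. The list was chosen with earlier results known, no set test was run, and these values are a description.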
